A study of Mus musculus with 4 samples.

Results

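The phagocyte NADPH oxidase is described here through 6 genes: Cybb, Cyba, Ncf1, Ncf4, Rac1 and Rac2. The genes were picked by name, as parts of the oxidase, and the rule that lists them uses no measured value. They are 6 of the 55536 genes in the deposited gene tables, and all 6 had enough reads to be tested. The tables come from polyadenylated RNA of primary macrophages grown from the bone marrow of C57BL/6J mice. All 4 libraries form 1 group, treated at 100 ng/mL for 60 minutes. The labels do not name the agent in 1 way, giving Lipid A in one place and lipoprotein A in another, so it is called the stimulus below. No unstimulated cells were analysed here, so nothing below measures a response to the stimulus. The libraries are numbered as biological replicates 1 to 4. They share 1 donor label, and no label assigns them to different animals or cultures. The spread between libraries, and any p-value that rests on it, may therefore be technical. In bulk RNA, fewer cells of a type and less RNA per cell cannot be told apart.

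The phagocyte oxidase passes electrons from NADPH across a membrane to oxygen and makes superoxide, which feeds the killing of ingested microbes. Its catalytic core is flavocytochrome b558, a pair of membrane proteins, gp91phox from Cybb and p22phox from Cyba. In resting cells the organiser p47phox (Ncf1) and p40phox (Ncf4) wait in the cytosol, and activation brings them to the membrane together with a GTP-bound Rac protein. Rac1 and Rac2 are close paralogs, small GTPases that also steer the actin network. Rac2 is largely restricted to blood cells and Rac1 is made in most tissues. Inherited loss of Cybb, Cyba, Ncf1 or Ncf4 causes chronic granulomatous disease.

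In the mm10 build with the GENCODE M21 annotation, Cybb lies at chrX:9435252-9487771 on the minus strand. Cyba lies at chr8:122424776-122432930 on the minus strand. Ncf1 lies at chr5:134220053-134229625 and Rac1 on the same chromosome at chr5:143503634-143528036, both on the minus strand. Ncf4 lies at chr15:78244801-78262580 on the plus strand, and Rac2 at chr15:78559167-78572783 on the minus strand. RefSeq promoter windows of build GRCm38.p6 matched 3 of the 6 genes: Cybb, Cyba and Ncf1. The 250 bases before the start of Cybb (chrX:9469325-9469574, minus strand) and of Ncf1 (chr5:134229626-134229875, minus strand) are shown because both hold the interferon-stimulated response element, searched as GAAANNGAAA on both strands. Capitals mark its matches. The start used for Cybb is at the 5′ end of its main transcript model, Cybb-201, at chrX:9469324. The end of the gene at 9487771 is that of another model, Cybb-205.
Cybb promoter: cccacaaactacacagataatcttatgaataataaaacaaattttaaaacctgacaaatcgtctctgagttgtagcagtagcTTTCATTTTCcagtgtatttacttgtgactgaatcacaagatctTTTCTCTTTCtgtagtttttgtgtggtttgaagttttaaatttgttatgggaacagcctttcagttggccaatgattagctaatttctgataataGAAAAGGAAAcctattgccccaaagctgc
Ncf1 promoter: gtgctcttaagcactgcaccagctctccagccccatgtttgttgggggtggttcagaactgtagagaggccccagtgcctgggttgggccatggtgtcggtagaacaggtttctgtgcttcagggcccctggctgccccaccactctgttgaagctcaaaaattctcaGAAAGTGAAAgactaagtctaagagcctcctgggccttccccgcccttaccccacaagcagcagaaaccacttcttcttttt
Cybb held 3 matches, at positions -168 to -159, -124 to -115 and -29 to -20 from its start, and Ncf1 held 1, at -82 to -73. Of 32851 windows of 300 bases, 3.44% held a match. The Cyba window held none. GAGGAA, the core that the macrophage factor PU.1 prefers, was found only in the Cybb window, on the opposite strand at bases 10 to 15 after the start, against 28.3% of windows. It is in capitals in the 28 bases at chrX:9469299-9469326, written on the strand of the gene.
Cybb start: gctgttttcatTTCCTCatcagaagaag
The AP-1 element TGANTCA matched once, in Cybb at -139 to -133, against 7.81% of windows. TTGCNNAA, the C/EBP element, and the kappa B element had no match in the 3 windows and were held by 10.8% and 8.46% of windows. A match describes the letters only. Transcripts of factors known to act on Cybb or Ncf1 were present: Irf1 averaged 658 ± 153 TPM, Spi1 (PU.1) 280.9 ± 24.6, Irf8 93.43 ± 23.6 and Cebpb 75.43 ± 37.4 (SD, n = 4). TPM is a level per length, scaled to the same total in each library.

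The libraries held 26917324 to 39438414 counts in genes. Ribosomal RNA took 12.34% of the counts in replicate 1 and 3.258% to 6.985% in the others. All 8 macrophage markers reached 1 TPM in every library, with a summed level of 18610 to 33470 TPM, led by Lyz2. Neutrophils also make the oxidase. Of 14 markers of neutrophils and their precursors, 6 reached 1 TPM in every library and none was at a count of 0 throughout. Their summed level was 234.6, 134.1, 773.9 and 83.68 TPM in replicates 1 to 4, led by S100a9. Replicate 3 was thus far above the other 3 libraries in this sum. Most of its sum came from S100a9 (456.6 TPM) and S100a8 (181.2 TPM). Every listed gene but Mmp8 was highest in replicate 3, some by little. Mmp8 stood at 25.11 TPM in replicate 1 and 17.82 in replicate 3. Markers of dendritic, B, T and NK, mast, basophil, eosinophil, erythroid, stromal and endothelial cells summed to at most 3.83 TPM per list, and the erythroid gene Hbb-bs was at 0 in every library. The part of these signals in the results below was not tested.

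Cyba was by far the most abundant transcript of the 6 per length. Its levels were 1083, 1583, 1212 and 1583 TPM in replicates 1 to 4, with a mean of 1365 ± 257 TPM (SD, n = 4), which ranked 78 among protein-coding genes. Replicates 2 and 4 were high and replicates 1 and 3 were low. Its partner Cybb stood at 268.2, 454.2, 338.8 and 378.9 TPM, a mean of 360.0 ± 77.7 TPM and rank 354. Replicate 2 was highest and replicate 1 lowest. The RNA of the small subunit exceeded that of the catalytic subunit in 4 of 4 libraries, by 3.49-fold to 4.18-fold. The mean log2 ratio of the TPM levels of Cyba to Cybb was 1.93 ± 0.13 (SD, n = 4), and an exact 2-sided sign-flip permutation test gave p = 0.125, adjusted p = 0.175 over 7 ratios. With 4 libraries, 0.125 is the smallest p this test can give, so no ratio could pass 0.05, and the range over libraries is the measure to read. In reads rather than level per length the order was the reverse. Cybb drew 20649 to 44136 counts per library and Cyba 9207 to 19380, since the main Cybb transcript is 4752 nt long and that of Cyba 744 nt.

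**Figure D1:**
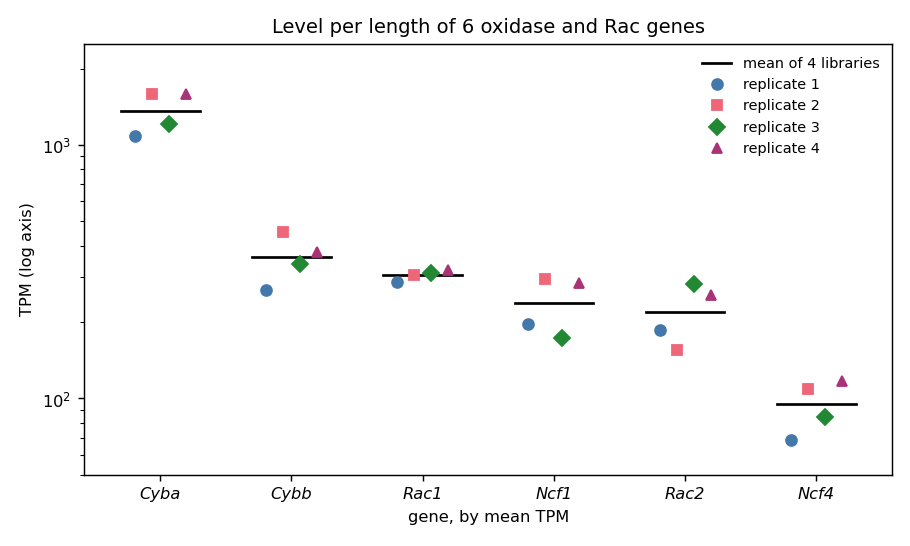
TPM (log axis) of the 6 genes in replicates 1 to 4 (coloured points) with the mean of the 4 libraries (black line), ordered by mean. Cyba lies between 1083 and 1583 TPM, above every value of the other 5 genes. The Rac1 points lie close together, and those of Rac2 and Ncf1 overlap.

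Among the cytosolic subunits, Ncf1 stood at 197.2, 297.0, 172.9 and 286.1 TPM in replicates 1 to 4, a mean of 238.3 ± 62.4 TPM. Replicates 2 and 4 were high and replicate 3 was lowest. Ncf4, whose product binds a phosphoinositide of the phagosome membrane, stood at 68.85, 108.8, 84.43 and 117.0 TPM, a mean of 94.77 ± 22.1 TPM and the lowest level of the 6. Replicates 2 and 4 were again high. Ncf1 exceeded Ncf4 in 4 of 4 libraries, by 2.05-fold to 2.86-fold, with a mean log2 ratio of the levels of 1.32 ± 0.22 (exact permutation p = 0.125, adjusted p = 0.175).

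In the TPM of the gene tables Rac1 varied least of the 6 genes between libraries and Rac2 most. In a second quantification of the same libraries Rac1 again had the smallest range, 1.27-fold, nearly level with Rac2 at 1.28-fold. There Ncf4 had the widest range, 1.85-fold, so the place of Rac2 did not hold. Rac1 stood at 288.7, 306.9, 312.9 and 320.8 TPM, a mean of 307.3 ± 13.6 TPM with a coefficient of variation of 4.44%. Rac2 stood at 185.9, 154.7, 282.2 and 255.8 TPM, a mean of 219.6 ± 59.4 TPM with a coefficient of variation of 27.0%. Replicates 3 and 4 were high for Rac2 and replicate 2 was lowest. Rac2 lay below Rac1 in 4 of 4 libraries, at 0.504 to 0.902 of its level, with a mean log2 ratio of -0.53 ± 0.37 (exact permutation p = 0.125, adjusted p = 0.175).

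By mean TPM the order was Cyba, Cybb, Rac1, Ncf1, Rac2 and Ncf4. The middle of this order was not settled by these gene levels, and it differed when only each gene's main transcript was counted. Cybb exceeded Rac1 in 3 of 4 libraries, with a log2 ratio of the levels of 0.20 ± 0.28, from -0.11 to 0.57 (exact permutation p = 0.25, adjusted p = 0.2917). Rac1 exceeded Ncf1 in 4 of 4 libraries, yet by only 1.03-fold in replicate 2 (log2 ratio 0.40 ± 0.37, exact permutation p = 0.125, adjusted p = 0.175). Ncf1 exceeded Rac2 in 3 of 4 libraries, with a log2 ratio from -0.71 to 0.94 and a mean of 0.12 ± 0.67 (exact permutation p = 0.625, adjusted p = 0.625). Without replicate 2 that mean was -0.15, and in the second quantification it was also -0.15. Rac2 exceeded Ncf4 in 4 of 4 libraries, by 1.42-fold to 3.34-fold (log2 ratio 1.20 ± 0.53, exact permutation p = 0.125, adjusted p = 0.175). With the main transcript of each gene alone, Cybb exceeded Rac1 by a log2 ratio of 1.13 ± 0.24 and Ncf1 exceeded Rac2 by 1.06 ± 0.26, each in 4 of 4 libraries. On that measure Rac2 exceeded Ncf4 by 0.50 ± 0.21, also in 4 of 4 libraries.

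The next question was how far each gene differed between libraries of the same treatment, on counts relative to library size (CPM) with edgeR's TMM factors. Cybb stood at 749.2, 1304, 1044 and 1151 CPM in replicates 1 to 4, a 1.74-fold range, the widest of the 6. Cyba stood at 334.0, 502.6, 399.5 and 505.5 CPM, a 1.51-fold range. Both membrane subunits were lowest in replicate 1. Ncf1 stood at 305.5, 471.5, 293.0 and 480.4 CPM, a 1.64-fold range, and Ncf4 at 50.1, 70.62, 51.81 and 80.42 CPM, a 1.6-fold range. Both cytosolic subunits were low in replicates 1 and 3 and high in replicates 2 and 4. Rac1 stood at 261.5, 290.2, 301.9 and 309.5 CPM, a 1.18-fold range. Rac2 stood at 155.9, 210.2, 205.8 and 227.6 CPM, a 1.46-fold range.

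Across the 6 genes, 5 were lowest in replicate 1 and 5 highest in replicate 4. How often other genes had these extremes was not counted, so this is not read as a trait of the 6 genes. The exceptions were Ncf1, lowest in replicate 3, and Cybb, highest in replicate 2. Replicate 1 also had the highest ribosomal RNA share, 12.34% of counts, and replicate 3, where Ncf1 and Ncf4 were low, had the highest summed neutrophil markers, 773.9 TPM. Their part in these differences was not tested.

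**Figure D2:**
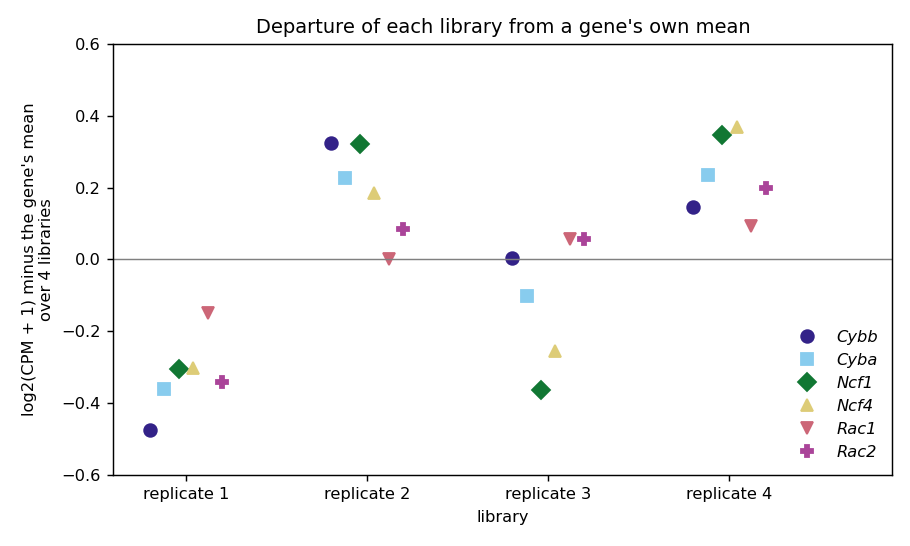
Log2(CPM + 1) of each gene in each library minus the gene's mean over the 4 libraries, with the genes set side by side within a library. All 6 genes lie below their mean in replicate 1 and above it in replicate 4. Replicate 3 splits Ncf1 (-0.36) and Ncf4 (-0.25) from Rac1 and Rac2 (both 0.06).

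A gene was called variable when a chi-square test against counting noise passed an adjusted p of 0.05 (Benjamini-Hochberg over 12626 genes) and the highest library exceeded the lowest by at least 2-fold. None of the 6 genes was called, against 33.1% of all genes tested. All 6 passed the chi-square test alone, against 88.3%. With a 1.5-fold range, 4 of 6 were called, Cybb, Cyba, Ncf1 and Ncf4, against 57.8%. None of the 6 was called either with DESeq2 size factors (33.1% of genes called), with total counts (33.3%) or in the second quantification (36%). The same held without replicate 1 (16.3% of genes called), 2 (27.8%), 3 (26.6%) or 4 (29.3%). The median range of the 6 was 1.56-fold, against 1.68-fold over all genes tested and 1.49-fold over the 4586 genes whose counts averaged 1000 or more. The 6 genes belong to that well-counted set, with at least 1381 counts in every library. Of its 4586 genes, 889 were called variable at 2-fold and 4531 passed the chi-square test alone, so the like set was called less often than all genes tested. The deposited tables also give a credibility interval of the posterior mean TPM, at a level that is not stated. Cybb had intervals that did not overlap in 6 of 6 pairs of libraries, Cyba and Ncf1 in 5, Ncf4 and Rac2 in 4 and Rac1 in 3. Over genes at 1 TPM or above in each library, 77.5% had at least 1 such pair.

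The deposited lists of files record 6 read files for replicates 1 and 2 and 4 for replicates 3 and 4. None of the 6 genes differed by this split in edgeR's quasi-likelihood test, with an adjusted p of 1 for each, against 0% of all 12701 genes tested. At an unadjusted p under 0.05 the test held 290 genes and none of the 6. Rac2 had the largest difference, 216.7 CPM with 4 read files and 183.0 with 6, a log2 difference of 0.24 (edgeR, unadjusted p = 0.417). Libraries with the same number of read files also differed, and the larger within-pair difference of each gene follows. These values compare single libraries and the split compares means, so they cannot be set against it. Replicates 2 and 1 differed by 0.43 for Rac2, 0.15 for Rac1, 0.59 for Cyba and 0.80 for Cybb on the log2 CPM scale, and replicates 4 and 3 by 0.71 for Ncf1 and 0.63 for Ncf4. DESeq2 called 35 genes, 0.236% of those it tested, and again none of the 6.

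Transcript models divided the genes into 2 kinds. For Cybb, Cyba and Ncf1, 1 transcript carried nearly all of the TPM: Cybb-201 97.5% ± 0.29, Cyba-201 97.4% ± 0.30 and Ncf1-202 92.4% ± 1.01 (SD, n = 4). Their gene levels are therefore close to the level of 1 full-length coding transcript. Cyba-202, which lacks an 84-base coding exon at chr8:122426936-122427019 (28 codons), took 2.51% of the Cyba TPM. Ncf1-201, which has 42 more coding bases at chr5:134221988-134222029 (14 codons), took 3.88% ± 1.05 of the Ncf1 TPM. Ncf4-201 took 92.1%, 75.8%, 68.8% and 79.7% of the Ncf4 TPM in replicates 1 to 4, a mean of 79.1% ± 9.77. Replicate 1 was highest and replicate 3 lowest. Much of the rest went to short retained-intron models. The 336 nt model Ncf4-204 took 0%, 4.59%, 23.8% and 13.2%, from at most 44.0 counts per library. In counts, Ncf4-201 held 94.7% ± 1.94.

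The Rac2 level in TPM rested in large part on very few reads. The full-length coding transcript Rac2-201 (3038 nt) held 97.0% ± 1.49 of the Rac2 counts but 46.0%, 73.8%, 35.8% and 44.9% of the Rac2 TPM in replicates 1 to 4. Rac2-203, a 254 nt coding fragment with 2 exons, held 59.4, 25.1, 112 and 89.6 counts. These counts became 78.8, 30.9, 134.5 and 100.6 TPM, because its effective length, the number of places where a fragment can start, was 33.38 to 43.22 nt. That was 42.4%, 20.0%, 47.6% and 39.3% of the gene's TPM from a mean of 1.09% of its counts. Rac2-202, a 459 nt model annotated for nonsense-mediated decay, took 12.6% ± 4.73 of TPM and 1.96% ± 1.03 of counts.

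**Figure D3:**
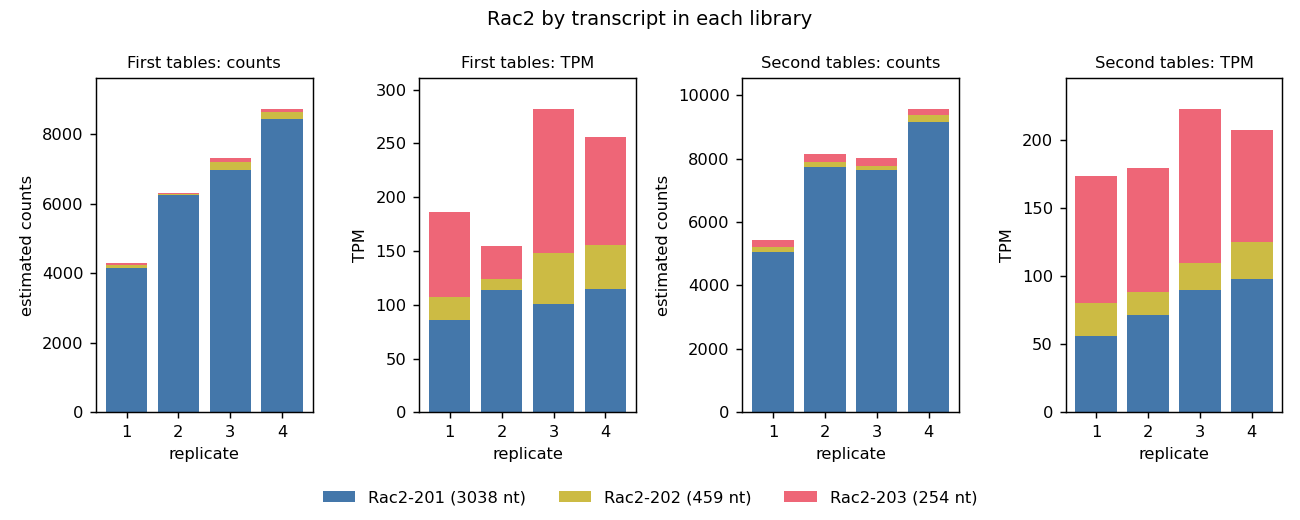
Estimated counts and TPM of Rac2 in each library, stacked by transcript, from the first and the second deposited transcript tables. The 254 nt model Rac2-203 is a thin band in the counts and a large part of the TPM in both.

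Rac2-201 alone stood at 85.6, 114.1, 101.0 and 114.7 TPM, a mean of 103.9 ± 13.7 TPM, with replicate 1 lowest. The low value of replicate 2 in the gene's TPM was thus not seen in its full-length transcript or in its CPM. The range of Rac2 was 1.82-fold in TPM, 1.46-fold in CPM and 1.28-fold in TPM of the second quantification, where the libraries stood at 173.7, 179.4, 223.1 and 207.5 TPM. There Rac2-203 took 48.8% ± 6.18 of TPM, from 3.12% ± 0.76 of counts.

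Rac1 showed the same gap between reads and TPM, but evenly across libraries. The 585 nt noncoding model Rac1-204 took 43.2% ± 1.38 of the Rac1 TPM and 9.82% ± 0.37 of its counts. Rac1-202 (2325 nt) took 51.3% ± 2.83 of TPM and 75.0% ± 4.81 of counts. Rac1-201 (4159 nt) took 5.49% ± 1.71 of TPM and 15.1% ± 4.57 of counts, and Rac1-203 took 0%. The second transcript tables gave 53.1% ± 4.09 of TPM for Rac1-202, 43.8% ± 4.15 for Rac1-204 and 2.94% ± 0.23 for Rac1-201. Counting the main transcript alone, Rac1 averaged 157.8 TPM in place of 307.3, and Rac1-202 then lay below Ncf1-202 in 3 of 4 libraries, with replicate 3 the exception (169.8 against 161.3 TPM). The mean log2 ratio was -0.45 ± 0.38 (SD, n = 4).

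Rac1-202 and Rac1-201 encode different proteins. Rac1-202 is the only one of the 4 models with the 57-base exon at chr5:143509597-143509653, 19 codons that are known as the insert of the splice form Rac1b. It is shown in capitals with 15 bases of the neighbouring exons on each side, in mm10 on the minus strand.
Rac1-202 exon: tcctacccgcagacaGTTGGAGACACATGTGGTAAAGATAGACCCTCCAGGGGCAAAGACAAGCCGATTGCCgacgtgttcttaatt
The same model also has the shorter 3′ end, with a last exon of 1624 nt against 3472 nt in Rac1-201. No model joins the short 3′ end to a message without the exon. Use of the exon and use of the short 3′ end therefore cannot be told apart in these shares, and 51.3% is not a measurement of exon use.

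**Figure D4:**
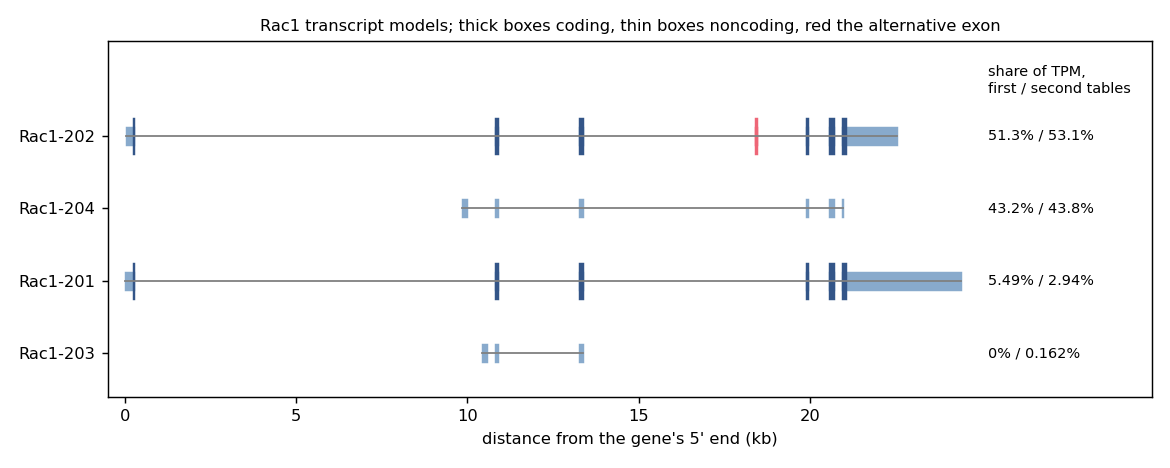
The 4 Rac1 transcript models by distance from the gene's 5′ end in kb, with coding parts thick, noncoding parts thin and the 57-base exon in red. The mean share of TPM in the first and second transcript tables stands at the right: Rac1-202 takes 51.3% and 53.1%.

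Reads of Rac1 and Rac2 can be told apart over most of their length. Their coding sequences are 576 bases long without the exon and the stop codon, and 77.1% of the bases are identical (444 of 576), with a longest shared run of 29 bases. Over the last 60 coding bases, which encode the basic tail and membrane anchor where Rac proteins differ most, 55% are identical. These bases, 517 to 576 of each coding sequence, are shown with the differing bases in capitals.
Rac1 tail: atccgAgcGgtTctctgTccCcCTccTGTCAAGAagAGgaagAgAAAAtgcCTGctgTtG
Rac2 tail: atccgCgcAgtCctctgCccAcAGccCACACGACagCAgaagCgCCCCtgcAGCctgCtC
No run of 31 bases was shared between the main transcripts of Cybb, Cyba or Ncf4 and those of other genes, on either strand. Ncf1-202 shared 8.84% of its 31-base words, 201 of 238 of them with Gtf2ird2, which overlaps it on the opposite strand. Rac1-202 shared 19.9%, 431 of 457 with Daglb, which runs into its 3′ end from the opposite strand. Rac2-201 shared 4.55%, spread over 1125 genes. The strand setting of the counting is not given in the sources used here, so the split of these reads is uncertain. Gtf2ird2 averaged 6.39 ± 4.50 TPM and Daglb 26.9 ± 3.80 TPM (SD, n = 4), both well below their neighbours. Gm20388, a long model on the strand opposite to Cyba that spans its locus, shared no word with Cyba-201.

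Cybb was the only catalytic subunit of the oxidase family above 1 TPM in any library. Nox1 stood at 0.47, 0.08, 0.06 and 0.13 TPM. Nox4 had 2 counts over the 4 libraries. Nox3, Duox1 and Duox2 had a count of 0 in every library, where a count of 0 allows up to 3 counts, or 0.0761 to 0.111 CPM. Of the organising and maturation factors, Cybc1, needed for the stability of the membrane pair, averaged 32.42 ± 3.85 TPM. Noxo1, the organiser of the epithelial oxidase, averaged 0.55 ± 0.21 TPM, and Noxa1, Duoxa1 and Duoxa2 were at a count of 0. The proton channel Hvcn1, which balances the charge that the oxidase moves, averaged 92.09 ± 21.8 TPM, with a 1.73-fold range.

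In all, 73 other genes of the oxidase and Rac pathway were listed, and 58 of them reached 1 TPM in all 4 libraries, while 13 were under 1 TPM in each. Of the 62 tested, 16 were called variable, 25.8% against 33.1% of all genes, and their median range was 1.54-fold. Of the 16, 8 were lowest and 6 highest in replicate 1, and 8 were highest and 5 lowest in replicate 2. Such extremes were not counted over all genes, so these numbers are not read as a trait of the pathway. Without replicate 1, 4 pathway genes were called, and 16.3% of all genes. Without replicate 2, 9 pathway genes were called, and 27.8% of all genes. How many pathway genes were tested in these runs was not recorded, so the numbers cannot be set directly against the percentages. None of the 62 was called by the number of read files in edgeR's test, at an unadjusted p under 0.05 either.

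Among the GTPases related to Rac, Cdc42 was highest, at 660.6 ± 71.4 TPM, and Rhoc and Rhoq were called variable, with ranges of 2.64-fold and 2.1-fold. Arhgdia, which holds Rac and related GTPases in the cytosol, averaged 585.6 ± 43.9 TPM. Dock2, the main Rac exchange factor of white blood cells, led a group of 16 exchange factors and their partners at 89.2 ± 10.5 TPM. Of that group 5 were called variable, and the widest ranges were those of Arhgef7 (2.47-fold), Elmo1 (2.24-fold) and Tiam1 (2.14-fold), all highest in replicate 1. Abr, which turns Rac off, led the 8 GTPase-activating proteins at 91.87 ± 18.2 TPM. Of these 4 were called, with the widest ranges in Bcr (3.45-fold), Arhgap15 (3.38-fold) and Arhgap25 (2.19-fold). Bcr rested on 500 counts over the 4 libraries.

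Of 9 kinases that act on the cytosolic subunits, 1 was called variable. This was Prkcd, which phosphorylates p47phox and was also the most abundant of them. It stood at 98.91, 228.1, 179.5 and 207.8 TPM, low in replicate 1, with a 2.32-fold range in CPM. Of the 5 genes of phosphoinositide kinases and their regulatory subunits, Pik3r5, a regulatory subunit, led at 112.7 ± 11.6 TPM. Pik3cg (2.56-fold) and Pik3cd (2.44-fold) were called, with Pik3cg highest and Pik3cd lowest in replicate 1. Among replicates 2 to 4 both were lowest in replicate 3. None of 6 Rac effectors of the actin network was called, with Iqgap1 highest at 281 ± 25.9 TPM. Of 6 transcription factors, Cebpb (3.9-fold) and Irf8 (2.03-fold) were called. Cebpb stood at 76.84, 120.8, 29.23 and 74.88 TPM, lowest in replicate 3. Irf8 stood at 59.75, 105.8, 95.08 and 113.1 TPM, lowest in replicate 1.

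**Figure D5:**
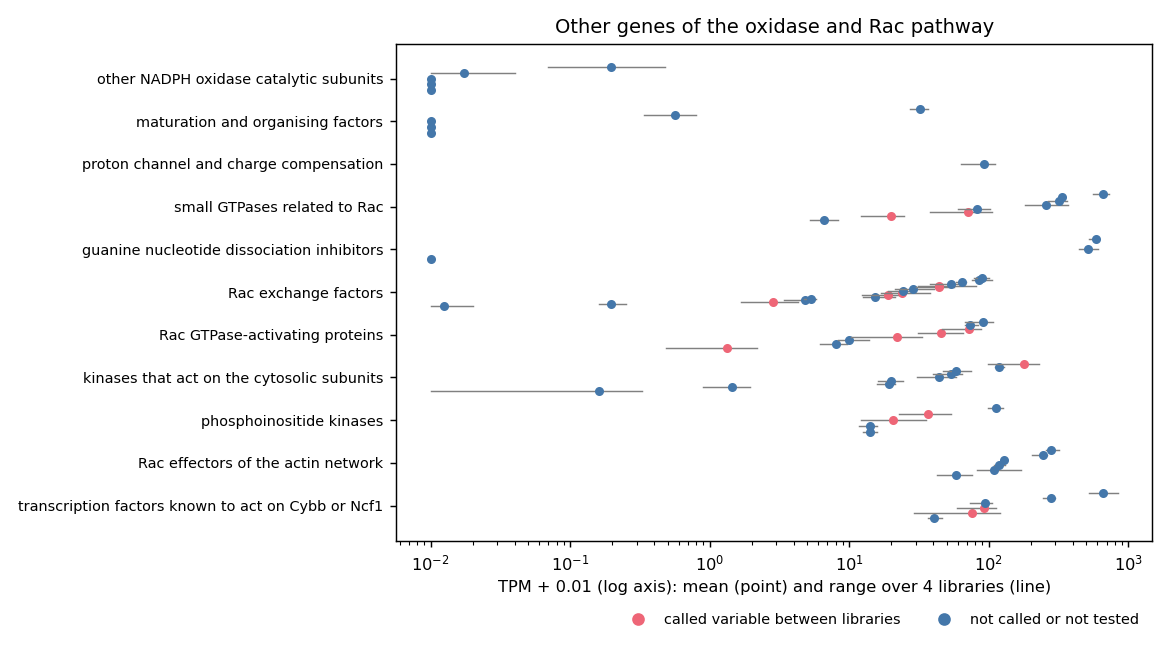
TPM + 0.01 (log axis) of other pathway genes by role, with 1 gene left out, as the mean (point) and range (line) over 4 libraries, with the 16 genes called variable in red. Genes at a count of 0 lie at the left edge. All catalytic subunits other than Cybb lie below 1 TPM.

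The genes whose pattern over the 4 libraries was most like that of each member were found by the root mean square difference of centred log2 CPM, over 6451 protein-coding genes with a mean of at least 10 TPM. The 4 libraries leave room for many near matches, so the nearest genes are a description. Ttc33 was nearest to Cybb (0.0111), followed by Kmt2e and Lyl1, and Dram1 to Cyba (0.0128), followed by Gpr108 and Cnot6l. Rel was nearest to Ncf1 (0.0171), followed by Ep300 and B9d2, and Maged1 to Ncf4 (0.0245), followed by Atf7ip and Pitpnm1. Tmem168 was nearest to Rac1 (0.0054), followed by Tmed4 and Patl1, and Fbxo8 to Rac2 (0.0096), followed by 6430548M08Rik and Irak4. From 81 genes (Ncf1) to 656 genes (Rac1) lay within 0.1 of a member. Among the 6 genes themselves, Ncf1 and Ncf4 were closest (0.088). Cybb and Cyba (0.103), Cyba and Ncf4 (0.107), Cyba and Rac2 (0.108) and Rac1 and Rac2 (0.118) lay about equally close, and Ncf1 and Rac1 were farthest apart (0.304).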

How the data were processed

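Polyadenylated RNA was sequenced in 4 libraries of 1 group. The deposited gene tables hold expected counts and TPM per the file headers, whose column names are those RSEM writes. They also give posterior mean TPM with a credibility interval as a non-negative signal bound, and the deposited transcript tables give each isoform's percent of its gene. A second deposited transcript table with kallisto's column names gives estimated counts and TPM, summed here to genes. The build (mm10) and annotation (GENCODE M21) are per the deposited lists of files. Tools, versions and strand setting are not stated there.

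Expected counts were rounded, spike-in and other rows that name no gene were left out, and counts were scaled with edgeR 4.0.16 (TMM) in R 4.3.3. Libraries were compared by chi-square against counting noise (3 degrees of freedom, mean count of at least 10), which covers counting error only, and by edgeR's quasi-likelihood test, with DESeq2 1.42.0 as an alternative. Scripts were tested on simulated data.

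The members are listed by name and not by a value, but they and the lists were chosen with earlier results of these data known. Named were all 6 members. In each pathway role the gene with the highest TPM and at most 3 variable genes with the widest range were named, all other oxidase catalytic subunits, the 3 nearest genes of each member, and of the marker lists the most abundant genes and those at 0. Remaining genes were named after their values were seen, and a few genes that the rule would name are not reported here. Alternatives were another size factor, no filter, the posterior mean, the second quantification, counts without ribosomal and mitochondrial RNA, a 1.5-fold range and leaving out each library. The main isoform alone and a test without a fold range were chosen after seeing the data.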

Additional observations from a re-analysis of the deposited data

How the results depend on the processing

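Of 150 values recomputed under an alternative, 134 held. Some of these could hardly fail, such as the number of members called by number of read files, where the main test called no gene. A level or share held when it moved by less than 1 SD between libraries, a count when it stayed within 1.5 times, and a log2 ratio when it kept its sign, whatever its size, since no ratio could pass the test. The mean TPM of Cyba was 1042 in the second quantification. That of Rac1 was 237.0 there, 292.4 as posterior mean, 352.1 without ribosomal and mitochondrial RNA and 157.8 with the main isoform alone, and that of Rac2 was 103.9 with the main isoform alone. With the main isoform alone, the log2 ratio of Rac1 to Ncf1 turned to -0.446, while that of Cybb to Rac1 was 1.13, that of Ncf1 to Rac2 to 1.06, and that of Rac2 to Ncf4 was 0.50. The log2 ratio of Ncf1 to Rac2 turned to -0.153 in the second quantification, and ran from -0.153 (without replicate 2) to 0.396 when 1 library was left out. Members called variable numbered 4 at a 1.5-fold range and 6 without a fold range, and none when any 1 library was left out. Pathway genes called variable numbered 31 of 62 at a 1.5-fold range, against 57.8% of all genes, and 4 to 15 when 1 library was left out. The cause was not tested.

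Leaving out 1 library at a time, mean TPM ran from 302.8 to 313.5 for Rac1 and from 198.8 to 241.3 for Rac2. In the second quantification Cybb-201 held 93.05% and Ncf1-202 held 89.9% of TPM. Without replicate 2, edgeR called 98 of all genes by number of read files, and no member. No paired analysis was possible because the 4 libraries form 1 group.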
